A study of Bos taurus with 12 samples.

Results

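The 10 genes described here make or receive prostaglandins and leukotrienes. They were PTGS1, PTGS2, PTGES, PTGES2, PTGER2, PTGER4, ALOX5, ALOX5AP, LTA4H and ALOX15. Probes were assigned to them by the RefSeq accession that the array gives for each probe. A total of 25 probes of 43653 matched, and the 10 genes were among 12639 that could be named in this way. Mammary gland (MG) RNA was measured in 12 cows, 6 control (CONT) and 6 restricted (REST), with one array per cow. All were multiparous Holstein cows in early lactation, biopsied 24 h after 50 µg of lipopolysaccharide (LPS) had been infused into a healthy rear gland of the udder, so that every sample came from an LPS-challenged gland. The groups differed in feed: barley straw made up 48% of the dry matter offered to REST cows over 4 d, whereas CONT cows stayed on the undiluted lactation ration with free access. There was no unchallenged gland on the arrays, and the comparison is of the diets only.

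Prostaglandins and leukotrienes are lipid signals made from arachidonic acid, which phospholipases release from membranes. Cyclooxygenases turn arachidonic acid into the precursor from which synthases make prostaglandin E2, a mediator of fever, pain and vessel dilation that acts on cells through its own receptors. The enzyme 5-lipoxygenase, helped by its activating protein, starts leukotriene synthesis, and leukotriene B4 attracts neutrophils, the main cells to enter milk after LPS. The enzyme 15-lipoxygenase makes other oxidised lipids, some of which take part in the resolution of inflammation.

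A level below is the log2 signal of a probe minus the 75th percentile of the array, so that 0 is the level of a bright probe and negative values are dimmer. A log2 fold change (FC) is REST minus CONT. Where a gene had several probes, the brightest over all arrays, called probe 1, stands for it. Levels of different probes cannot be compared, since each probe binds with its own strength. A probe was measured where the scanner software called it well above background. The label of the tissue was checked against its markers, and all 9 mammary epithelium markers that matched the array were measured on all 12 arrays, and their mean level was 5.14 to 5.66 in CONT and 5.21 to 5.89 in REST. The arrays lay on 3 slides, with 3 CONT and 1 REST on slide 1, 1 CONT and 3 REST on slide 2, and 2 of each on slide 3. The signal of the negative controls was 37.7 to 58.2 on slide 1 and 17.4 to 19.96 on the other slides.

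None of the 10 genes passed the threshold after adjustment over all probes, in common with every other probe on the array (0 of 43653 by Westfall-Young or by Benjamini-Hochberg, percent called 0). Probe 1 was lower in REST for 8 genes and higher for 2, PTGES and ALOX5, while 43.5% of all named genes were higher in REST. The number of lower genes was 6 without REST cow 0049 and 9 without CONT cow 0015. The median log2 FC of the 10 genes was -0.17, with a range of -1.17 to 0.19, beside -0.03 over all named genes. In limma without adjustment (p called unadjusted below), 1 of the 10 genes, PTGS2, was under 0.05, beside 2.62% of all probes in both directions and 0.875% in the direction of lower in REST. For none of the 10 did the groups separate without overlap, beside 0.126% of all probes. Probe 1 was measured on all 12 arrays for PTGS1, PTGES, PTGES2, PTGER4, ALOX5AP, LTA4H and ALOX15, and on fewer for PTGS2, PTGER2 and ALOX5.

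**Figure D1:**
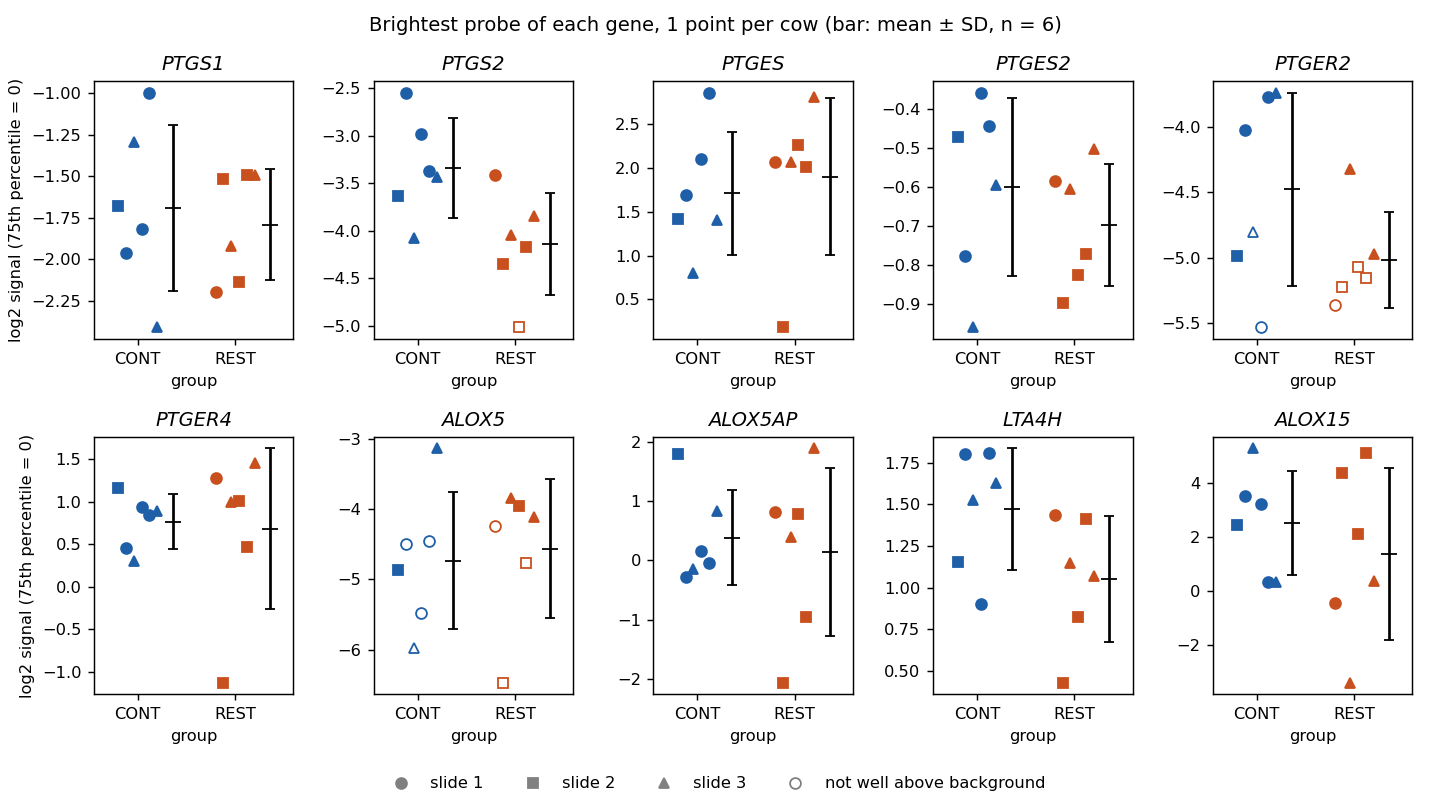
Level of the brightest probe of each of the 10 genes (log2 signal, the array's 75th percentile set to 0) in 6 CONT and 6 REST cows, 1 point per cow, with the mean and SD beside each group. The shape of a point gives the slide and open points were not well above background; the groups overlap in every panel, and ALOX15 has the widest spread.

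PTGS2 encodes the inducible cyclooxygenase, which is switched on by LPS and cytokines. Its level in CONT ran from -4.07 through a median of -3.41 to -2.55, and in REST from -5.02 through -4.11 to -3.41. All 6 REST cows lay below the CONT mean, and 3 of them lay below every CONT cow. CONT cows averaged -3.34 ± 0.53 and REST cows -4.14 ± 0.54 (SD, n = 6 each). The signal was thus 1.74-fold higher in CONT (log2 FC of -0.80, SE 0.29, 95% interval -1.44 to -0.16), with an adjusted p of 1. The two-sided exact permutation test over cows gave p = 0.0260 without adjustment. The size of the difference varied with the slide. It was -0.45 within slide 1 (1 REST cow), -0.88 within slide 2 (1 CONT cow) and -0.19 within slide 3, and with slide in the model it was -0.48. Without the 4 arrays of slide 1, an alternative chosen after seeing the data, it was -0.57, and with the normexp background correction it was -0.36. As the mean of the 3 PTGS2 probes, of which the third was at background, it was also -0.36. In none of these 4 alternatives was the unadjusted p of PTGS2 under 0.05. When each cow was left out in turn, PTGS2 stayed under 0.05 before adjustment (log2 FC of -0.95 to -0.63).

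A second PTGS2 probe was measured in 2 CONT and 3 REST cows, and its log2 FC was -0.14 (SE 0.31). The third stayed near background in all cows and has no FC. Probes 1 and 2 did not vary together over the cows (Pearson's r = 0.03, permutation p = 0.932; Spearman's rho = -0.12, p = 0.715). Most values of probe 2 were not well above background, so this correlation cannot tell whether the probes disagree. The lower PTGS2 signal in REST was seen with probe 1, which was itself measured in 6 CONT and 5 REST cows.

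Of the 9 LPS-inducible genes and their regulators listed beside PTGS2, such as TNF, CXCL8 and NFKBIA, 8 had a lower mean in REST (median log2 FC of -0.36). Over all named genes 43.5% were higher in REST. IL1A, the gene of interleukin 1 alpha, was the one under 0.05 before adjustment, beside 2.64% of all named genes. Its level was -3.85 to -2.87 in CONT and -5.34 to -3.51 in REST, with a log2 FC of -0.77 (SE 0.30, exact permutation p = 0.0173, adjusted p of 1), and it was well above background in 5 CONT and 3 REST cows. Without CONT cow 0015 the IL1A log2 FC was -0.66, and no longer under 0.05 before adjustment. The same held with slide in the model (-0.55), without slide 1 (-0.77), as the mean of its probes (-0.53) and with normexp (-0.24). The mean level of this list was -0.26 to 0.17 in CONT and -1.10 to 0.22 in REST. REST cows 0049 (-1.10) and 1015 (-0.90) were the lowest, followed by cow 7043 (-0.44), and the other 3 REST cows lay at -0.059 to 0.22. Cows 0049 and 1015 also had the lowest mean levels of neutrophil markers, -1.66 and -0.55. The part of these markers in the PTGS2 values was not tested.

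PTGS1 encodes the cyclooxygenase that most tissues make without a stimulus. CONT cows had levels of -2.41 to -0.996 (median -1.75) and REST cows of -2.20 to -1.49 (median -1.72), so that the REST values lay within the CONT range. Their log2 FC of -0.10 (SE 0.24) had a 95% interval of -0.63 to 0.43, and it was 0.083 without slide 1. The second PTGS1 probe gave -0.06 (SE 0.40), and the third was at background throughout.

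The prostaglandin E synthases convert the cyclooxygenase product to prostaglandin E2. PTGES, the inducible microsomal form, ran from 0.80 through a median of 1.56 to 2.86 in CONT, and from 0.18 through 2.07 to 2.82 in REST. Of the 6 REST cows 5 lay above the CONT mean, and REST cow 0049 lay below every CONT cow. Probe 1 gave a log2 FC of 0.19 (SE 0.43, 95% interval -0.74 to 1.12; exact permutation p = 0.712), which was 0.54 without cow 0049 and 0.0079 without CONT cow 0015. All 3 probes of PTGES were measured on all 12 arrays and gave 0.19, 0.22 and 0.21. The 3 probes ranked the cows nearly alike (r of 0.97 to 0.99, permutation p = 1e-05 for each pair), REST cow 0049 being the lowest with all of them. With slide in the model probe 1 gave 0.51 and without slide 1 it gave 0.66, both above 0.05 before adjustment.

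PTGES2, the other membrane-associated synthase, varied little. Levels in CONT ran from -0.96 to -0.36 with a median of -0.53, and those in REST from -0.90 to -0.50 with a median of -0.69. The pooled SD within groups was 0.20, low in the distribution of probes measured on all arrays (percentile 12.4). The log2 FC of -0.10 (SE 0.15) had the narrowest 95% interval of the 10 genes, -0.42 to 0.22 (exact permutation p = 0.394). Its other 2 probes gave -0.03 (SE 0.17) and -0.30 (SE 0.26).

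Prostaglandin E2 acts through receptors that include those encoded by PTGER2 and PTGER4, both of which raise cyclic AMP. PTGER2 was close to background and was measured in 4 CONT and 2 REST cows. In CONT cows it lay between -5.53 and -3.74, with a median of -4.42, and in REST cows between -5.36 and -4.32, with a median of -5.11. Below the CONT mean lay 5 REST cows, and REST cow 1018 lay above it. The difference was -0.54 (log2 FC, SE 0.32, 95% interval -1.23 to 0.15; exact permutation p = 0.128), and the second probe gave -0.60 (SE 0.73). Without CONT cow 1024, the lowest of its group, PTGER2 had a log2 FC of -0.75, under 0.05 before adjustment and with an adjusted p of 1, and with normexp it had one of -0.17.

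PTGER4 was measured on all 12 arrays. The CONT cows lay close together, from 0.30 through a median of 0.87 to 1.17, and the REST cows ran from -1.13 through 1.01 to 1.45. Of the REST cows 5 lay within or above the CONT range, 2 of them above every CONT cow, while REST cow 0049 lay far below. PTGER4 thus had a log2 FC of -0.08 (SE 0.38, 95% interval -0.91 to 0.74; exact permutation p = 0.913), which was 0.28 without cow 0049 and 0.10 with slide in the model. Probes 2 and 3 gave -0.28 (SE 0.39) and -0.04 (SE 0.49). The second probe varied with the first over the cows (r = 0.91, and 0.59 without cows 0015 and 0049), and the third did not (r = -0.39, permutation p = 0.196).

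**Figure D2:**
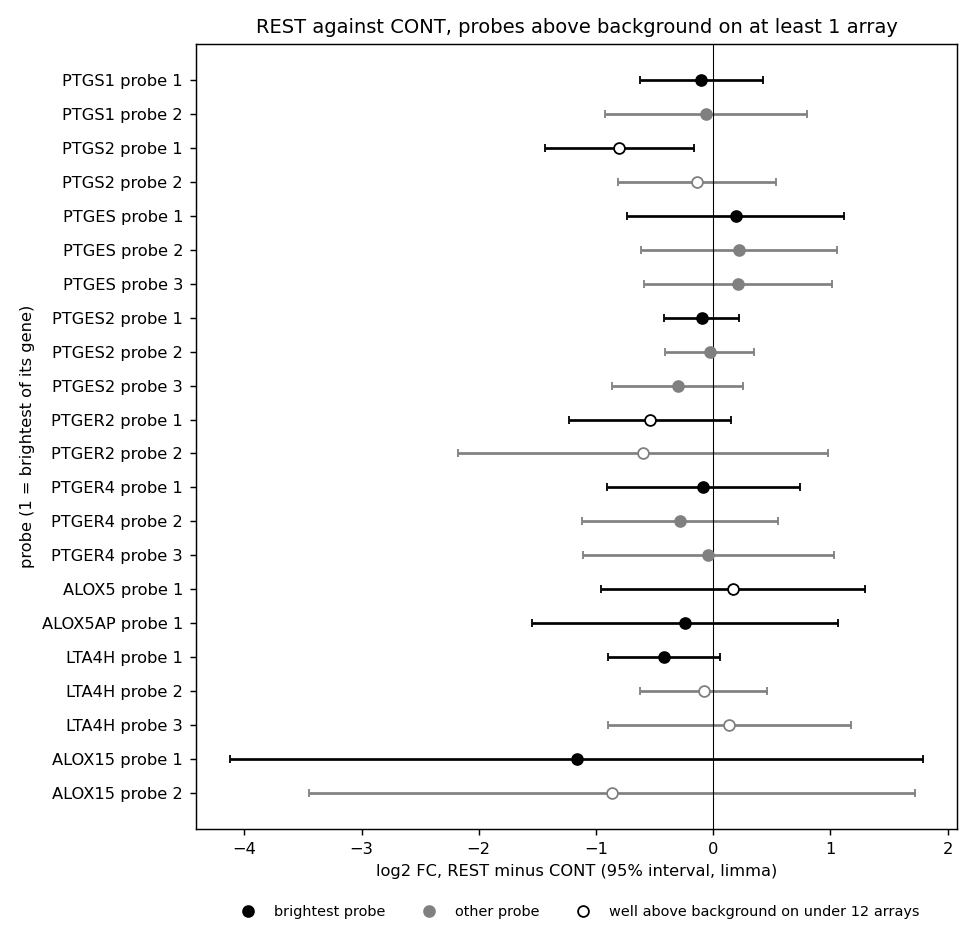
Log2 FC of REST against CONT with its 95% interval (limma) for every probe of the 10 genes that was well above background on at least 1 array. Black points are the brightest probe of a gene, grey points are other probes, and open points were well above background on fewer than 12 arrays; only the interval of PTGS2 probe 1 leaves out 0, before adjustment.

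Leukotriene synthesis starts with ALOX5, the gene of 5-lipoxygenase, which is known from neutrophils and other myeloid cells. Its signal was near background, measured in 2 CONT and 3 REST cows, with a median of -4.68 among CONT cows (-5.97 to -3.13) and of -4.17 among REST cows (-6.47 to -3.83). The fitted log2 FC of 0.17 (SE 0.52, 95% interval -0.96 to 1.30) took the other sign with normexp (-0.13) and without CONT cow 0015 (-0.078). The second ALOX5 probe was at background in all 12 cows. A difference between the diets was not detectable at this signal.

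ALOX5AP encodes the protein that presents arachidonic acid to 5-lipoxygenase. It had a single probe, measured on all 12 arrays. Among CONT cows the level ran from -0.29 to 1.79 around a median of 0.051, and among REST cows from -2.06 to 1.89 around 0.59. The highest cows of the groups, CONT cow 9040 and REST cow 1058, were alike, and the spread within REST was wide (SD 1.42, beside 0.80 in CONT). ALOX5AP had a log2 FC of -0.24 (SE 0.60, 95% interval -1.54 to 1.07; exact permutation p = 0.727). Leaving out single cows moved it from -0.59 to 0.20, and it was 0.20 without REST cow 0049, 0.043 without CONT cow 9040 and -0.82 without slide 1.

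LTA4H encodes leukotriene A4 hydrolase, which makes leukotriene B4. CONT cows had a median level of 1.58, between 0.90 and 1.81, and REST cows one of 1.11, between 0.43 and 1.43. All 6 REST cows lay below the CONT mean and 2 below every CONT cow. This was a log2 FC of -0.42 (SE 0.22, 95% interval -0.90 to 0.061; exact permutation p = 0.0823). Within slides it was -0.068, -0.27 and -0.47, and with slide in the model -0.29. Probes 2 and 3 of LTA4H, each measured in 5 CONT and 6 REST cows, gave -0.08 (SE 0.25) and 0.14 (SE 0.48), so that the size of the difference depended on the probe (-0.12 as the mean of the 3). Without CONT cow 1024 probe 1 gave -0.53, under 0.05 before adjustment and with an adjusted p of 1. Leaving out this cow was the setting in which 3 of the 10 genes, PTGS2, PTGER2 and LTA4H, were under 0.05 before adjustment, beside 1022 of 43653 probes in the same setting. The array of cow 1024 had the highest negative control signal (58.2) and the most missing probes (90). It also had the smallest share of probes well above background (57.6%).

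ALOX15, the gene of 15-lipoxygenase, showed the largest mean difference and the largest spread of the 10 genes. CONT cows lay between 0.32 and 5.29 around a median of 2.83, and REST cows between -3.41 and 5.12 around 1.24. The highest cows of both groups were alike, REST cow 1018 was the lowest, and CONT cows 0055 and 8027 and REST cows 0078 and 1058 lay between -0.44 and 0.37. The pooled SD was 2.64, at the 99.98th percentile among probes measured on all 12 arrays. Against this spread the log2 FC of -1.17 (SE 1.36) had a 95% interval of -4.12 to 1.79 (exact permutation p = 0.461). Within slides it was -2.80 on slide 1, 1.42 on slide 2 and -4.33 on slide 3. Slide 1 held 1 REST cow and slide 2 held 1 CONT cow, so that the sign there rests on a single cow. The log2 FC was -2.14 with slide in the model and -0.21 without REST cow 1018, above 0.05 before adjustment in both.

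The spread of ALOX15 was seen by both of its probes. Probe 2, measured in 4 CONT and 3 REST cows, had levels of -6.13 to -1.45 in CONT and -7.80 to -1.35 in REST, and it varied with probe 1 (r = 0.96, permutation p = 1e-05, the smallest that 100000 resamples can give; rho = 0.94). Without cows 0015 and 1018 the correlation was 0.96, and it was 0.99 within CONT and 0.95 within REST. This comparison of probes was chosen after the values were seen. Among the 21 pairs of probes of one gene, 7 were under 0.05 after Benjamini-Hochberg adjustment, those of PTGES, ALOX15, PTGER4 probes 1 and 2, PTGES2 probes 1 and 3, and LTA4H probes 2 and 3.

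**Figure D3:**
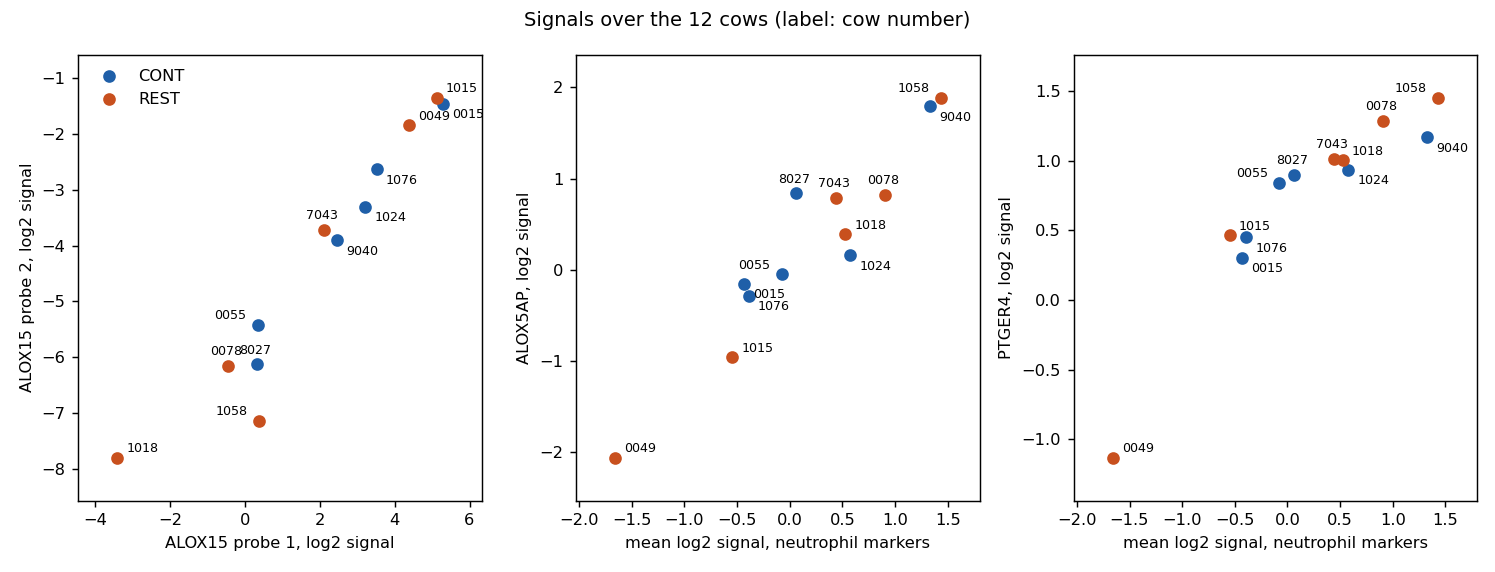
Signals over the 12 cows, 1 point per cow with its number, blue for CONT and orange for REST. The left panel sets ALOX15 probe 2 against probe 1 (r = 0.96), and the others set ALOX5AP (r = 0.95) and PTGER4 (r = 0.93) against the mean log2 signal of the neutrophil markers; REST cow 0049 has the lowest values in the middle and right panels.

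How the genes varied together was examined in the 7 genes measured on all 12 arrays, with 21 pairs of genes and 21 relations to the mean level of neutrophil, macrophage and mammary epithelium markers. Of these 42 relations, 5 were under 0.05 after Benjamini-Hochberg adjustment. PTGER4 and ALOX5AP varied together (r = 0.89, permutation p = 3e-05, adjusted p = 0.00042; rho = 0.89). The correlation was 0.88 without cows 0015 and 0049, 0.78 within CONT, 0.93 within REST and 0.92 after diet and slide were removed. PTGES and PTGER4 gave r = 0.77 (permutation p = 0.00425, adjusted p = 0.0357; rho = 0.57, adjusted p = 0.211), but 0.29 without the same cows, so this relation rested on them.

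The other relations that passed joined these genes to markers of white blood cells. A biopsy is bulk tissue, in which fewer cells of a type and less RNA per cell cannot be told apart. Of 15 neutrophil markers 13 matched the array and 11 were measured on all 12 arrays, and their mean level was -0.43 to 1.33 in CONT and -1.66 to 1.43 in REST. MPO, made mainly by immature neutrophils, was well above background in 2 CONT and 1 REST cows. ALOX5AP varied with this level (r = 0.95, permutation p = 3e-05, adjusted p = 0.00042; rho = 0.90), with 0.87 without cows 0049 and 1058, 0.86 within CONT, 0.99 within REST and 0.97 after diet and slide were removed. PTGER4 did so too (r = 0.93, permutation p = 1e-05, adjusted p = 0.00042; rho = 0.94), with 0.91 without the same cows and 0.93 after diet and slide were removed.

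The macrophage markers, 8 matched and all measured on 12 arrays, had mean levels of 1.26 to 1.501 in CONT and 0.66 to 2.46 in REST. ALOX5AP varied with them (r = 0.80, permutation p = 0.00318, adjusted p = 0.0334; rho = 0.69, adjusted p = 0.139), but r was 0.48 without cows 0049 and 1058. PTGER4 gave r = 0.77 (adjusted p = 0.0690). REST cow 0049, the lowest cow for PTGES, PTGER4, ALOX5, ALOX5AP and LTA4H, had the lowest level of both marker lists. The array of cow 0049 also had the lowest 75th percentile of intensity, 386.9 beside 508.5 to 1183.9 on the other arrays. On that array 69.1% of probes were well above background, within the range of the others. No neutrophil marker was under 0.05 between the diets, and 7 were higher and 6 lower in REST. The part of white blood cell content or of array intensity in the differences between cows was not tested.

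ALOX15 had negative values of r, -0.58 to PTGER4, -0.51 to ALOX5AP, -0.51 to PTGES and -0.52 to PTGES2, and none passed after adjustment (adjusted p of 0.175 to 0.211). Without the 2 cows furthest from the median of the other gene, r was -0.55, -0.42, -0.22 and -0.26 in the same order. The correlation of ALOX15 with the mammary epithelium markers was 0.27 (adjusted p = 0.608). PTGS1 and LTA4H had no relation under 0.05 after adjustment.

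**Figure D4:**
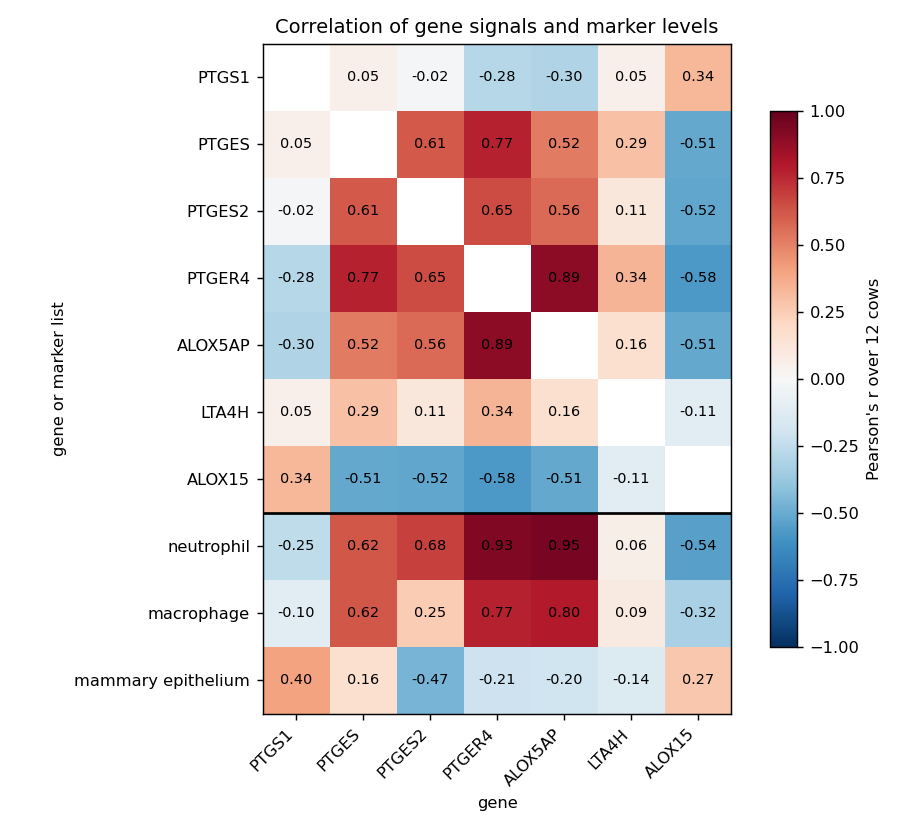
Pearson's r over the 12 cows between the levels of the 7 genes measured on all 12 arrays, and between each gene and the mean level of 3 lists of markers (below the line). ALOX5AP and PTGER4 are tied most closely to the neutrophil markers and to each other, and ALOX15 has negative values with 5 of the 6 other genes.

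The genes whose level was most like each of the 7 were named by their Pearson's r over the 12 cows among 8999 genes measured on all arrays, as a description with no test. The points share their libraries, so differences in tissue makeup enter each value. For ALOX5AP they included CD48 (r = 0.972), a surface protein of white blood cells, and CYBC1 (r = 0.971), needed for the oxidative burst of phagocytes. For PTGER4 they were SNX10 (r = 0.979), RAC2 (r = 0.963), a small GTPase of white blood cells, and CSF1R (r = 0.963), the receptor for macrophage colony-stimulating factor. CSF1R is also on the macrophage list. ALOX5AP had 94 genes above r = 0.9 and PTGER4 had 86.

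For ALOX15 the nearest genes were RUNDC1 (r = 0.974), LPL (r = 0.970) and OAT (r = 0.963). LPL encodes lipoprotein lipase, which releases blood fatty acids for milk fat, and OAT is the mitochondrial ornithine aminotransferase. LPL levels were 1.35 to 6.91 in CONT and -0.22 to 6.96 in REST, with cow 1018 the lowest as for ALOX15. LPL had a log2 FC of -0.93 (SE 1.29). ALOX15 had 99 genes above r = 0.9 and 34 below -0.9, the highest counts of the 7 genes in both directions.

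The other 4 genes were less closely matched. The nearest to LTA4H was IL33 (r = 0.940), the gene of an alarmin cytokine, followed by CDK9 (r = 0.894) and DDX20 (r = 0.889). IL33 itself had levels of 0.87 to 3.06 in CONT and -0.05 to 1.78 in REST, with a log2 FC of -0.98 (SE 0.38), under 0.05 before adjustment. It was picked for its likeness to LTA4H, which also had a lower mean in REST, so that this value is not independent of the choice. PTGS1 was nearest to RBPMS (r = 0.856), RDX and CDK6, PTGES to ZFAND2A (r = 0.878), RAB5B and SLC39A13, and PTGES2 to SGSM2 (r = 0.894), LOC617654 and PRMT7. None of these 3 genes had another above r = 0.9.

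The wider pathway was read from 63 other genes of eicosanoid metabolism, of which 52 matched the array and 37 were measured on all 12 arrays. In REST the mean was higher for 32 and lower for 20, with a median log2 FC of 0.03 (over all named genes 43.5% were higher and the median was -0.03), none passed the adjusted threshold, and 2 were under 0.05 before adjustment, beside 2.64% of all named genes. PLA2G1B, PLA2G3, PTGIR and ALOX12 were at background on all 12 arrays, so that their direction was not measured. Over the other 48 the mean was higher for 30 and lower for 18 (45.2% higher over the 11532 named genes well above background on at least 1 array). Of these 48, 37 were measured on all 12 arrays and some on only 1, so that the direction of the dimmest is uncertain. Among these 48, 6 of 9 phospholipases were higher, 5 of 9 prostanoid synthesis genes, 4 of 5 removal and transport genes, 4 of 5 prostanoid receptors, 6 of 9 further leukotriene synthesis genes, 4 of 6 leukotriene and resolvin receptors, and 1 of 5 other lipoxygenase and epoxide genes. The median log2 FC of these groups was between -0.17 and 0.32.

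PTGDS, which makes prostaglandin D2 and is also a lipid carrier, was one of the 2. Its level was 4.90 to 6.75 in CONT and 3.44 to 6.22 in REST, with the lowest values in REST cows 1015 and 0049. PTGDS had a log2 FC of -1.13 (SE 0.51), under 0.05 in limma before adjustment, with an exact permutation p = 0.0736 and an adjusted p of 1. With slide in the model it was -0.79 and no longer under 0.05. PTGR1, which inactivates prostaglandins and leukotriene B4, had a level of -0.23 to 2.26 in CONT and -2.44 to 1.34 in REST (log2 FC of -1.18, SE 0.69, exact permutation p = 0.184), and the same 2 REST cows were the lowest. Without cow 1015 the differences were -0.87 for PTGDS and -0.70 for PTGR1, both above 0.05 before adjustment. With slide in the model PTGR1 was -0.48.

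CBR3, a carbonyl reductase that can act on prostaglandins, had levels of -0.77 to -0.10 in CONT and -0.20 to 0.31 in REST and all 6 REST cows lay above the CONT mean (log2 FC of 0.35, SE 0.16, exact permutation p = 0.0130, adjusted p of 1). Without CONT cow 1024 it was 0.26, and no longer under 0.05 before adjustment. Over the processing alternatives the log2 FC of CBR3 was 0.29 to 0.38, with an unadjusted p of up to 0.168, so that not all of them kept it under 0.05. AKR1C3, a reductase that makes prostaglandin F2 alpha, had the largest positive value among those measured on all arrays (0.83, SE 0.88, exact permutation p = 0.416), with levels from -3.18 to 1.59 in REST. AKR1C3 was 0.38 without REST cow 1015, 1.34 without REST cow 0078, 0.44 with slide in the model and 2.003 without slide 1.

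**Figure D5:**
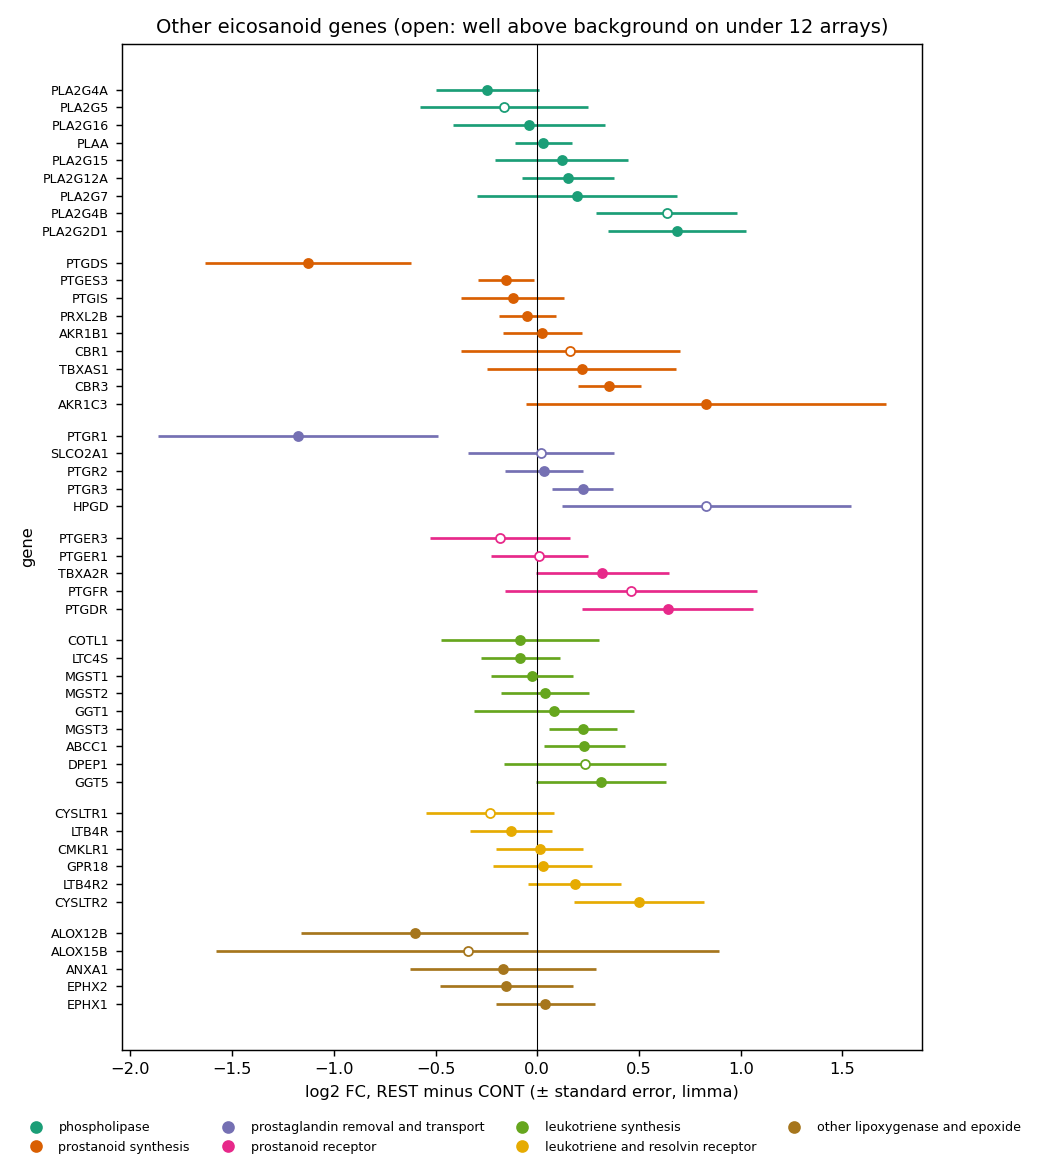
Log2 FC of REST against CONT (± SE, limma) for the other eicosanoid genes well above background on at least 1 array, colored by their part of the pathway and ordered within it. Open points were well above background on fewer than 12 arrays; PTGR1 and PTGDS lie furthest to the left, and AKR1C3 and HPGD have the largest positive values.

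Markers of other cell types that make or respond to these lipids follow. Over all named genes, 43.5% were higher in REST and 2.64% were under 0.05 before adjustment. The only eosinophil marker that matched, CCR3, had levels of -5.61 to -5.21 in CONT and -5.08 to -4.30 in REST, with no overlap (log2 FC of 0.75, SE 0.18, exact permutation p = 0.00216, the smallest that 12 cows allow, adjusted p of 1), but it was well above background in 1 CONT and 3 REST cows. Most of the CCR3 spots were thus near background, so that the size of the difference and the separation were not measured there. CD3D, of the T cell receptor complex, had a log2 FC of 0.60 (SE 0.26, exact permutation p = 0.0563), under 0.05 in limma before adjustment but not with slide in the model (0.50), without slide 1 (0.63) or as the mean of its probes (0.24). The 6 other T cell markers were above 0.05, and of all 7 the mean of 3 was higher and that of 4 lower in REST (median log2 FC of -0.09). The B cell gene MS4A1 was not well above background in any CONT cow and was so in 4 REST cows (exact permutation p = 0.0281). The size of the MS4A1 difference was thus not measured either. Of the 3 B cell markers that matched, the mean of 2 was higher and that of 1 lower in REST (median log2 FC of 0.13). MS4A1 was the 1 B cell marker under 0.05 in limma before adjustment. Of 6 endothelial markers all had a higher mean in REST, and VWF, the von Willebrand factor, was under 0.05 (log2 FC of 0.79, SE 0.30, exact permutation p = 0.00433), though 0.50 without CONT cow 8027, still under 0.05 before adjustment. The mean level of the endothelial list was -1.91 in cow 8027, -0.20 to 0.085 in the other CONT cows and -0.42 to 0.52 in REST.

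Of 6 fibroblast markers 5 had a lower mean in REST (median log2 FC of -0.63), while 43.5% of all named genes were higher. In limma before adjustment 3 were under 0.05, beside 2.64% of all named genes. The 3 markers were the collagens COL1A1 (-0.72, SE 0.31, exact permutation p = 0.0649) and COL1A2 (-0.65, SE 0.27, exact p = 0.0325), and LUM, the proteoglycan lumican (-0.84, SE 0.24, exact p = 0.00866). The mean level of the list was 2.45 to 2.82 in CONT and 1.35 to 3.02 in REST. For each of these markers the adjusted p was 1. With each cow left out in turn, CCR3 and LUM stayed under 0.05 before adjustment, while CD3D, MS4A1, VWF, COL1A1 and COL1A2 were above it without at least 1 cow. With normexp neither CCR3 (0.17) nor MS4A1 was under 0.05 before adjustment, and with slide in the model COL1A1 was -0.39 and COL1A2 -0.45, again not under it. LUM stayed under it in every alternative run. The part of these cell types in the levels of the 10 genes was not tested.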

How the data were processed

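Total RNA (100 ng) of each MG biopsy was labeled with Cy3 by the authors and hybridized to a one-color Agilent bovine array, 1 per cow. The deposited values are spot intensities, which the authors obtained with Feature Extraction 11.0.1.1 after its background correction, not normalized between arrays. The deposited matrix held the same intensities (largest difference 0). Diets were taken from the sample labels.

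Control spots were left out and outlier spots dropped. The log2 intensities, less the 75th percentile of their array, were averaged per probe. Of 43653 probes, 205 had a missing value and 7052 were never well above background; all stayed in the test. Between 57.6 and 78.1% of probes per array were well above background. Probes were named through their RefSeq accession, without version. Array annotation and RefSeq table belong to different assemblies, and positions were left out.

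The diets were compared in limma 3.58.1 (R 4.3.3), two-sided, with Westfall-Young adjustment over 100 of 462 distinct splits of the cows (lowest possible adjusted p of 0.01), a threshold of 0.05, and Benjamini-Hochberg beside it. Exact permutation tests of single probes used all 924 splits (lowest possible p of 0.00216). Correlations used 100000 resamples (SciPy 1.17.1); r was also computed without the 2 cows furthest from the median of the first measure. Normexp used an offset of 50. On simulated data of 43448 probes, Westfall-Young found 0% of 2-fold, 50% of 4-fold and 78% of 16-fold changes, and Benjamini-Hochberg 22%, 74% and 94%. The simulated noise was normal and independent between probes and arrays, with no slide effect, so these shares may not hold for the real data.

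The 10 genes, the lists and most alternatives were chosen with earlier results of these data known. Named besides the 10 genes were the listed pathway and marker genes under an unadjusted 0.05 or without overlap, the 3 pathway genes with the largest log2 FC measured on all arrays, and the 3 genes nearest by Pearson's r to each of the 7 measured on all arrays (1 of these is not reported here). TNF, CXCL8, NFKBIA, MPO and HPGD were named after their values were seen. The alternatives were another adjustment, another draw of splits, quantile normalization, normexp, the deposited matrix, a filter on dim probes, outlier spots kept, slide as a block, an intensity trend, other choices of probe, each cow left out, and slide 1 left out. The other marker lists gave no gene under 0.05, those of mast cells, platelets, myoepithelium and adipocytes, with median log2 FC of 0.02, 0.02, -0.19 and 0.18.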

Additional observations from a re-analysis of the deposited data

Results flagged for a closer look

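Within groups of 6 cows, 1 cow stood apart from the rest of its group in 5 of the 44 groups examined, by the gap between that cow and the nearest of the others as a share of the whole range of the group (Dixon's 95% critical value of 0.625). For independent groups of normal values chance gives about 1 in 20, or 2.2 groups. The groups here share cows, and the genes besides the 10 were picked by their values, so that 2.2 is a rough guide. Of the 5 groups found, 3 were among the 20 groups of the 10 genes. In REST, PTGES was lowest in cow 0049, at 0.18 beside 2.01 to 2.82 in the others (share of 0.696). ALOX5 was lowest in the same cow, at -6.47 beside -4.77 to -3.83 (share of 0.647), and that spot was not well above background. PTGER2 was highest in REST cow 1018, at -4.32 beside -5.36 to -4.97 (share of 0.627), but 4 of those 5 other spots were not well above background. In CONT, CBR3 was lowest in cow 1024, at -0.77 beside -0.33 to -0.10 (share of 0.645), and VWF was lowest in cow 8027, at 0.12 beside 1.502 to 2.03 (share of 0.725).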

How the results depend on the processing

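No paired analysis was possible because the labels give every sample the same replicate number, and the numbers used here follow the order of the samples only. No probe passed the adjusted threshold in any alternative run. At an unadjusted 0.05, 1143 probes were found, 377 with normexp, and 825 to 1739 when single cows were left out. The count of the 10 genes under 0.05, which was 1, became 0 with normexp, slide as a block, the mean of a gene's probes or without slide 1, and was 1 to 3 without single cows. For ALOX5 the log2 FC of 0.17 became -0.13 with normexp, -0.033 as the mean over probes and -0.24 with the probe of lowest p, and was -0.078 to 0.55 without single cows. The values over probes and by lowest p rest on the ALOX5 probe at background in all cows and give no direction. PTGER4 became 0.10 with slide as a block (-0.24 to 0.28 without single cows), and PTGS1 0.083 without slide 1 (-0.24 to 0.039). ALOX5AP was -0.59 to 0.20 without single cows. Of the other eicosanoid genes, 1 in place of 2 was under 0.05 with quantile normalization, normexp or slide as a block, 3 with a trend in eBayes, and 0 to 3 without single cows. Their median of 0.03 became -0.0027 with normexp, 0.13 with slide as a block and 0.12 without slide 1 (0.00022 to 0.10 without single cows). The causes were not tested. There were 6 cows per diet, the brightest probes of PTGS2, PTGER2 and ALOX5 were not above background on every array, and slide and diet were partly confounded.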
